A study of Mus musculus with 6 samples.

Results

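The 9 genes followed here serve phospholipid peroxidation or the defence against ferroptosis, and all 9 were present among the 55487 genes of the count table. They are Gpx4, Acsl4, Lpcat3, Aifm2, Gch1, Por, Aloxe3, Alox12 and Alox15, matched by gene symbol. All were proposed with earlier results of these data known. The list follows what the genes do, except for Aloxe3, which was selected on its measured rise between the DMSO and CEP libraries, so its difference is described here without a test. The libraries came from 4T1, a mouse mammary carcinoma cell line. Cells were exposed in culture to 10 µM cepharanthine (CEP), a plant bisbenzylisoquinoline alkaloid, or to an equal volume of the solvent dimethyl sulfoxide (DMSO), and all were taken at 12 h. There were 3 poly(A) RNA libraries per group, with 15299261 to 19655010 counts per library. One label field names a single-cell source, but the protocol starts from total RNA of each sample and the table has 1 column per library, so the data were treated as bulk. Within CEP, replicate 1 differed most from the others, with a chi-square per degree of freedom of 9.03 and 10.9 against them, where these had 2.27 between each other and the DMSO pairs 1.81 to 3.53. Nothing in the labels says that the 3 libraries of a group came from separate cultures, so p-values measure only the spread between these libraries. All libraries are of 1 cell line with no gene altered.

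Ferroptosis is an iron-dependent cell death in which polyunsaturated fatty acids within membrane phospholipids become oxidised. ACSL4 activates these fatty acids and LPCAT3 places them in phospholipids, while POR and lipoxygenases can start or extend their oxidation. GPX4, a selenoprotein, reduces the resulting phospholipid hydroperoxides with glutathione. AIFM2 (FSP1), which regenerates reduced coenzyme Q, and GCH1, which begins tetrahydrobiopterin synthesis, guard membranes without GPX4. The epidermal lipoxygenase ALOXE3 differs from its relatives in that it mainly converts ready-made fatty acid hydroperoxides into epoxyalcohols.

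Gpx4 has a near-identical processed copy, Gpx4-ps2, that the table counts as a gene of its own, and the stretch below shows why reads of the pair are hard to separate. Both lines run 5′ to 3′ on the plus strand of chromosome 10, from GENCODE M21 transcripts on GRCm38 (Gpx4 at chr10:80054601-80054784, across an intron), and the capitals mark the in-frame TGA codon, read in Gpx4 as selenocysteine, at codon 129 of the 253 codons of the Gpx4 transcript used. The 2 stretches of 93 bases differed at 1 base, and the TGA stood in both.
Gpx4: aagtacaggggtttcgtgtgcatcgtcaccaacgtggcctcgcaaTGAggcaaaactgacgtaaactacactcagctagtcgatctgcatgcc
Gpx4-ps2: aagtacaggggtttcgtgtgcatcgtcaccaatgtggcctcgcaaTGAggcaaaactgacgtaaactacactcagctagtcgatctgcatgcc

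The promoter of Gch1 is shown because Gch1 rose most among the members that were tested. These are the 250 bases before its start, from RefSeq on GRCm38.p6 at chr14:47189414-47189663, minus strand, 5′ to 3′.
Gch1: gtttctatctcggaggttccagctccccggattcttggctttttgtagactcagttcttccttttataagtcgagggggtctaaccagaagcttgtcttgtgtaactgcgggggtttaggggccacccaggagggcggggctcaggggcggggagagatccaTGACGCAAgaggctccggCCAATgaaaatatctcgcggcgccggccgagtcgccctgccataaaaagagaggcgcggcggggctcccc
The capitals mark 1 match to TGANGCAA, the frame of the composite element bound by ATF4 with C/EBP factors, which began 88 bases before the start, and 1 CCAAT box, which began 70 bases before it. The first frame, whose letters were set after this promoter had been read, stood on either strand in 3.12% of 32851 promoter windows of the same length, and CCAAT in 33.8%. CCAAT also stood in the Lpcat3 window and in 3 of the 4 Gpx4 windows. Windows were found for 7 of the 9 members (10 windows), and not for Aloxe3 and Alox15. Among those 7, TGANGCAA stood in the Gch1 window alone. Since its letters were set after that promoter had been read, its match there was fixed in advance and is no result about Gch1. TCACGTG, the E-box of TFEB and TFE3 (3.13% of all windows), and TGACNNNGC, a core of the antioxidant response element (10.2%), stood in none of the 7 members' windows. A loose kappa-B frame was searched too, and stood in 45.8% of all windows. It stood in those of Gch1, Por, Lpcat3, Alox12 and Acsl4, and in 3 of the 4 Gpx4 windows. No promoter match says whether a factor was bound.

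Of the 6 members tested apart from Aloxe3, 3 rose with CEP, 0 fell, and 3 did not pass. Gch1 rose 2.16-fold, Gpx4 and Por rose 1.15-fold and 1.16-fold, and Acsl4, Lpcat3 and Aifm2 did not pass. Over all 13405 genes tested 38.2% passed in either direction and 20.1% passed upward (quasi-likelihood test of edgeR, p under 0.05 after Benjamini-Hochberg adjustment), so 3 of 6 is no result about these genes as a set. The 3 and 3 library values did not overlap for the same 3 members, and for 49.9% of all genes tested (25.2% upward). Without CEP replicate 1 the same 3 members passed, with log2 fold changes of 1.18 for Gch1, 0.15 for Gpx4 and 0.25 for Por (edgeR adjusted p = 2.36e-08, 9.51e-04 and 1.06e-06). Values of a group are given in the order of replicates 1, 2 and 3. Levels are CPM, counts relative to the scaled total of each library, and differences are log2 fold changes, CEP minus DMSO, with their standard error (SE). RNA was taken from whole cultures, so a change in the share of expressing cells and a change in RNA per cell cannot be told apart.

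**Figure D1:**
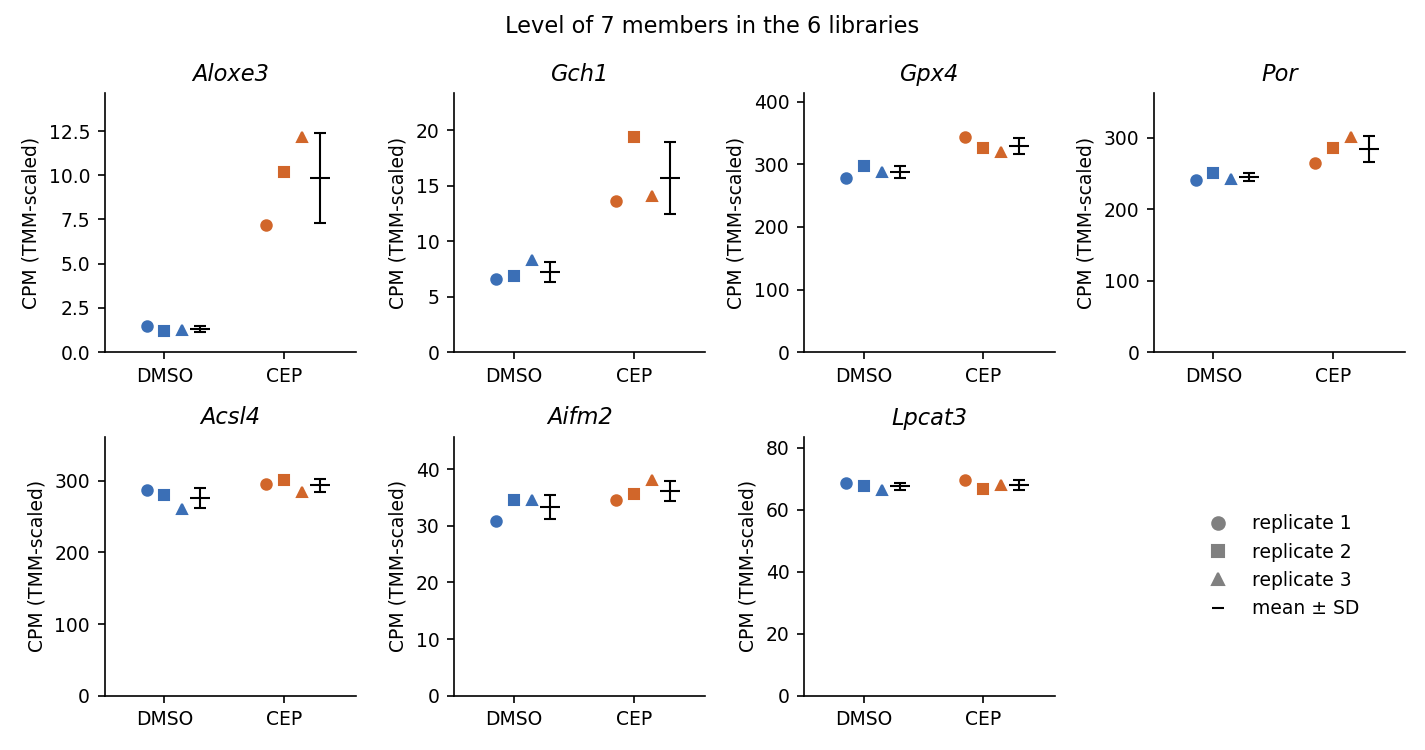
CPM of the 7 members that passed the filter on low counts in each library, with DMSO in blue and CEP in orange, 1 symbol per replicate, and the mean ± SD (n = 3) in black. The groups are apart for Aloxe3, Gch1, Gpx4 and Por and overlap for Acsl4, Aifm2 and Lpcat3.

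Gch1 (ENSMUSG00000037580, chromosome 14, 47153895 to 47189413, minus strand, GRCm38.p6) encodes GTP cyclohydrolase 1, the rate-limiting enzyme of tetrahydrobiopterin synthesis. It stood at 13.7, 19.4 and 14.0 CPM in the CEP libraries and at 6.60, 6.89 and 8.29 CPM in the DMSO libraries. Every CEP library lay above every DMSO library, and CEP replicate 2 was the highest. The means were 15.7 ± 3.23 and 7.26 ± 0.902 CPM (SD, n = 3 each), a log2 fold change of 1.10 ± 0.151 (SE, edgeR adjusted p = 7.79e-05). Of all genes tested, 1.95% had a higher log2 fold change. The counts behind it were 801 in CEP and 379 in DMSO.

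Of the 6 of 7 other genes of tetrahydrobiopterin synthesis and recycling that were tested, 0 rose, 3 fell and 3 did not pass, with a median log2 fold change of -0.35 beside 0.0083 over all genes tested, of which 18.2% fell. Gchfr, whose product binds GTP cyclohydrolase 1 and mediates its feedback inhibition, went from 37.4 ± 2.96 to 25.8 ± 3.80 CPM (SD, n = 3). Its log2 fold change was -0.54 ± 0.101 (SE, edgeR adjusted p = 0.00105). Spr, which encodes sepiapterin reductase of the final synthesis step, fell by 0.36 ± 0.0865 on the log2 scale (edgeR adjusted p = 0.00455). Pts, of the middle step, had a log2 fold change of -0.0040 ± 0.0981, and Qdpr, of recycling, one of -0.19 ± 0.0974 that passed without CEP replicate 1 (-0.30, edgeR adjusted p = 0.0120, alternatives 0.0120 to 0.334). Pcbd2, also of recycling, had -0.49 ± 0.198 (edgeR adjusted p = 0.0643), which passed with upper quartile scaling (-0.52, adjusted p = 0.0490, alternatives 0.0490 to 0.156). Its paralog Pcbd1 had too few counts to be tested.

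Gpx4 (ENSMUSG00000075706, chromosome 10, 80047166 to 80056439, plus strand) stood at 344, 325 and 319 CPM in the CEP libraries. In the DMSO libraries it stood at 277, 297 and 288 CPM. The groups did not overlap, but the step was small, from 287 ± 9.52 to 330 ± 12.9 CPM (SD, n = 3), a log2 fold change of 0.20 ± 0.0483 (SE, edgeR adjusted p = 0.00498). A higher log2 fold change was held by 28.0% of all genes tested.

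Its copy Gpx4-ps2 (ENSMUSG00000110841, chromosome 10, 45875291 to 45876086, plus strand), annotated as a transcribed processed pseudogene, had 1848, 1431 and 1566 counts in the CEP libraries and 1156, 1227 and 1487 in the DMSO libraries. That was 28.1%, 28.6% and 28.6% of the Gpx4 count in the CEP libraries and 24.5%, 27.2% and 26.4% in the DMSO libraries. Gpx4-ps2 rose by 0.32 ± 0.0621 on the log2 scale (SE, edgeR adjusted p = 0.00100). Its longer transcript aligned to 733 of the 995 bases of the Gpx4 transcript, with 2 mismatches and 0 gap bases (99.7% identity). Of 946 words of 50 bases in that Gpx4 transcript, 584 (61.7%) also occurred in Gpx4-ps2. How reads matching both genes were counted is not given in the sources used here, so the split between them, and the level of either, is uncertain. With the counts of Gpx4-ps2 and of the nearly silent Gpx4-ps1 added to Gpx4, an alternative chosen after the counts had been seen, the log2 fold change was 0.23 ± 0.0498 (SE, edgeR adjusted p = 0.00263).

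**Figure D2:**
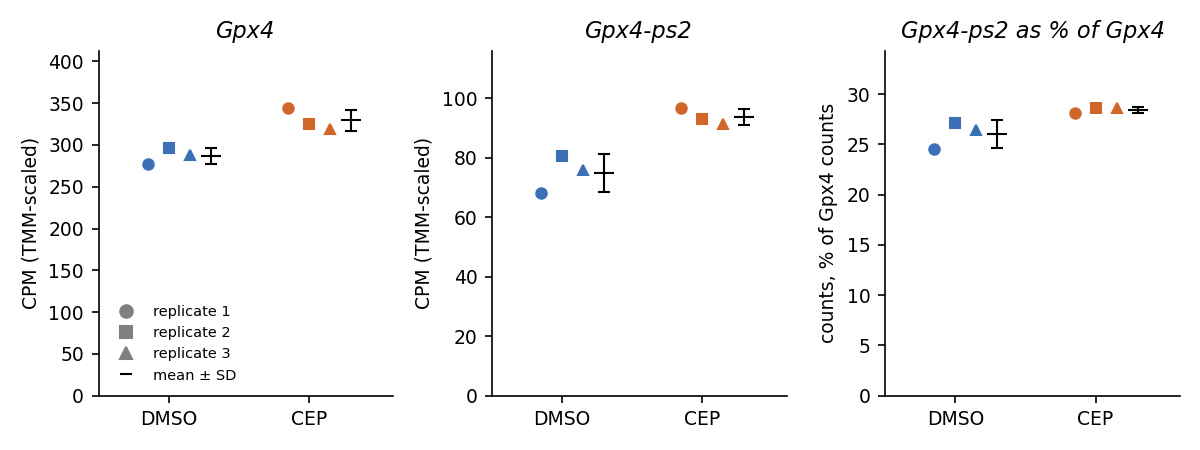
CPM of Gpx4 and of its processed copy Gpx4-ps2, and the Gpx4-ps2 count as a percentage of the Gpx4 count, in each library by group, with the mean ± SD (n = 3) in black. Both genes are higher in the 3 CEP libraries, and the percentage runs from 24.5% to 28.6%.

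Por (ENSMUSG00000005514, chromosome 5, 135670033 to 135735326, plus strand) encodes cytochrome P450 oxidoreductase, which passes electrons from NADPH to P450 enzymes. It was at 265, 286 and 302 CPM in the CEP libraries and at 242, 251 and 242 CPM in the DMSO libraries. The groups did not overlap, and CEP replicate 1 was the CEP library nearest to DMSO. The means were 285 ± 18.2 and 245 ± 5.38 CPM (SD, n = 3), a log2 fold change of 0.22 ± 0.0521 (SE, edgeR adjusted p = 0.00470), and 26.5% of all genes tested had a higher one. Of 5 tested genes among 9 other electron donors and NADPH oxidases, 2 rose, 0 fell and 3 did not pass (median 0.17). The 40.0% called, all higher, is near the 38.2% of all genes, of which 20.1% rose. Cyb5r1, a flavin reductase gene of the cytochrome b5 reductase family, rose by 0.61 ± 0.120 on the log2 scale (SE, edgeR adjusted p = 0.00512), from 67.4 ± 4.30 to 103 ± 17.8 CPM. Cyba, which encodes the p22phox subunit of NADPH oxidases, rose by 0.27 ± 0.0678 (edgeR adjusted p = 0.00639). Without CEP replicate 1, 2 genes of this group fell.

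Acsl4 (ENSMUSG00000031278, chromosome X, 142317993 to 142390535, minus strand) stood at 296, 301 and 284 CPM in the CEP libraries and at 287, 280 and 260 CPM in the DMSO libraries. CEP replicate 3 lay below DMSO replicate 1, so the groups overlapped. The log2 fold change was 0.090 ± 0.0498 (SE), with a 95% interval from -0.0073 to 0.19 and an edgeR adjusted p of 0.167. Lpcat3 (ENSMUSG00000004270, chromosome 6, 124663027 to 124704418, plus strand) stood at 69.5, 66.6 and 67.9 CPM in CEP and 68.7, 67.7 and 66.4 CPM in DMSO. Its groups lay on top of each other, with a log2 fold change of 0.0086 ± 0.0528 (SE, 95% interval -0.095 to 0.11, edgeR adjusted p = 0.913). Its exons overlap by 334 bases those of Emg1 on the opposite strand. Emg1, looked up for this overlap, fell by 0.40 ± 0.0601 on the log2 scale (SE, edgeR adjusted p = 1.57e-04). The library kit marked strand, but the strand setting of the counting is not given in the sources used here, and a part of Emg1 reads in the Lpcat3 count was not tested.

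Aifm2 (ENSMUSG00000020085, chromosome 10, 61715263 to 61739260, plus strand) stood at 34.5, 35.7 and 38.1 CPM in the CEP libraries and at 30.9, 34.5 and 34.6 CPM in the DMSO libraries. The lowest CEP library lay within the DMSO range. The log2 fold change was 0.12 ± 0.0741 (SE, 95% interval -0.030 to 0.26, edgeR adjusted p = 0.233).

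**Figure D3:**
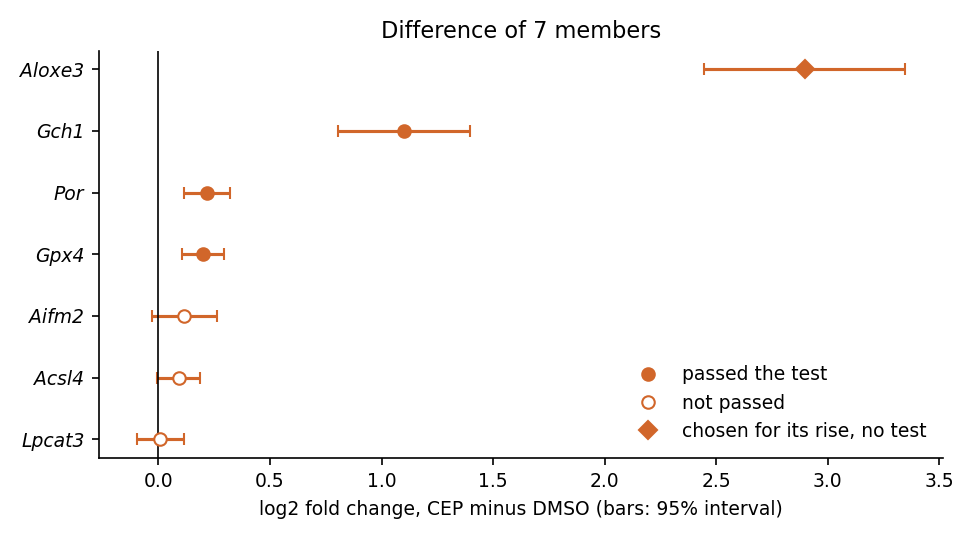
Log2 fold change, CEP minus DMSO, of the 7 members that passed the filter on low counts, with 95% intervals taken from the SE. Filled circles passed the test, open circles did not, and the diamond marks Aloxe3, chosen for its rise and not tested. The interval of Aloxe3 is descriptive and no test of its rise. Gch1 is at 1.10, Gpx4 and Por at 0.20 and 0.22, and the intervals of the 3 open circles include 0.

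Aloxe3 (ENSMUSG00000020892, chromosome 11, 69125896 to 69149115, plus strand) had 137, 157 and 209 counts in the CEP libraries and 25, 18 and 25 counts in the DMSO libraries. These were 7.17, 10.2 and 12.2 CPM against 1.47, 1.18 and 1.28 CPM. CEP replicate 1 was the lowest CEP library, and still far above every DMSO library. The mean rose from 1.31 ± 0.148 to 9.85 ± 2.53 CPM (SD, n = 3), 7.52-fold, or 2.90 ± 0.229 on the log2 scale (SE). As the gene was chosen for this difference, no p is given. The 68 DMSO counts have an exact Poisson 95% interval from 52.8 to 86.2, and the 503 CEP counts one from 460 to 549. Both cover counting error only, and since the gene was chosen for its rise, the gap between them is no test of it. None of the 50-base words of its longest protein-coding transcript occurred in another annotated gene.

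The other lipoxygenases stayed near 0. Alox12, the platelet-type 12-lipoxygenase gene (ENSMUSG00000000320, chromosome 11, 70241457 to 70255353, minus strand), had 0 counts in the 3 CEP libraries, which allows up to 0.0580 CPM, and 1 count in DMSO. Alox15, the leukocyte-type lipoxygenase gene (ENSMUSG00000018924, chromosome 11, 70344152 to 70352031, minus strand), had 1, 0 and 1 counts in CEP and 0 in DMSO, which allows up to 0.0579 CPM. Neither was tested, and a difference was not detectable at this depth. None of the 5 genes of the list of other lipoxygenases and their activating protein passed the filter on low counts, and with no such filter 0 of them passed the test. Alox12b, whose product makes the hydroperoxides that ALOXE3 uses in the epidermis, had 4, 3 and 1 counts in CEP and 3, 1 and 2 in DMSO. Alox8 had 4, 1 and 1 against 0, 0 and 4, and Alox5 had 1 count in all. Alox5ap, which encodes the protein that presents arachidonate to 5-lipoxygenase, had 2, 0 and 1 against 1, 3 and 2. Alox12e, an epidermal 12-lipoxygenase gene, had 2, 8 and 5 counts in CEP and 1 in each DMSO library, so its groups did not overlap. Aloxe3 therefore held 92.6% to 95.9% of the counts of the 7 lipoxygenase genes in CEP libraries and 78.1% to 90.0% in DMSO libraries.

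Of the other genes with a body within 100 kb of Aloxe3, 7 were tested: 3 rose, none fell, and 4 missed the threshold, where 20.1% of all genes tested rose and 38.2% passed either way. Hes7, a transcriptional repressor gene of the segmentation clock that ends 1840 bases before Aloxe3 begins, had 18, 22 and 21 counts in CEP and 8, 2 and 2 in DMSO. It rose by 2.32 ± 0.495 on the log2 scale (SE, edgeR adjusted p = 0.00208), and by 3.29 without DMSO replicate 1, the highest DMSO library. All its DMSO counts lay below the count minimum of the low-count filter, so Hes7 was kept on its CEP libraries alone. A gene so low in DMSO was tested only if it was higher in CEP. The p of Hes7, and its place among the 3 that rose, carry that limit. Per1, a circadian clock gene further along, went from 22.8 ± 2.09 to 50.6 ± 2.97 CPM (SD, n = 3) and rose by 1.15 ± 0.0806 (SE, edgeR adjusted p = 1.30e-07). Beyond it, Vamp2 had a log2 fold change of 0.28 ± 0.135 (edgeR adjusted p = 0.118), which passed without CEP replicate 1 (0.37, adjusted p = 0.0267), without DMSO replicate 1 (0.45, adjusted p = 0.0125) and with no low-count filter (0.27, adjusted p = 0.0257, alternatives 0.0125 to 0.369). Tmem107 had 0.0014 ± 0.119, and Borcs6, named after its value was seen, rose by 0.67 ± 0.155 (edgeR adjusted p = 0.00365). Farther out, and likewise named after the values were seen, Aurkb, a mitotic kinase gene, had -0.14 ± 0.0518 (edgeR adjusted p = 0.0503), just outside the threshold, and Ctc1 had -0.059 ± 0.0490. On the other side, Alox12b and Alox8 are the nearest genes, and none within the window was tested. All of these lie on the same strand as Aloxe3, apart from Alox8.

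**Figure D4:**
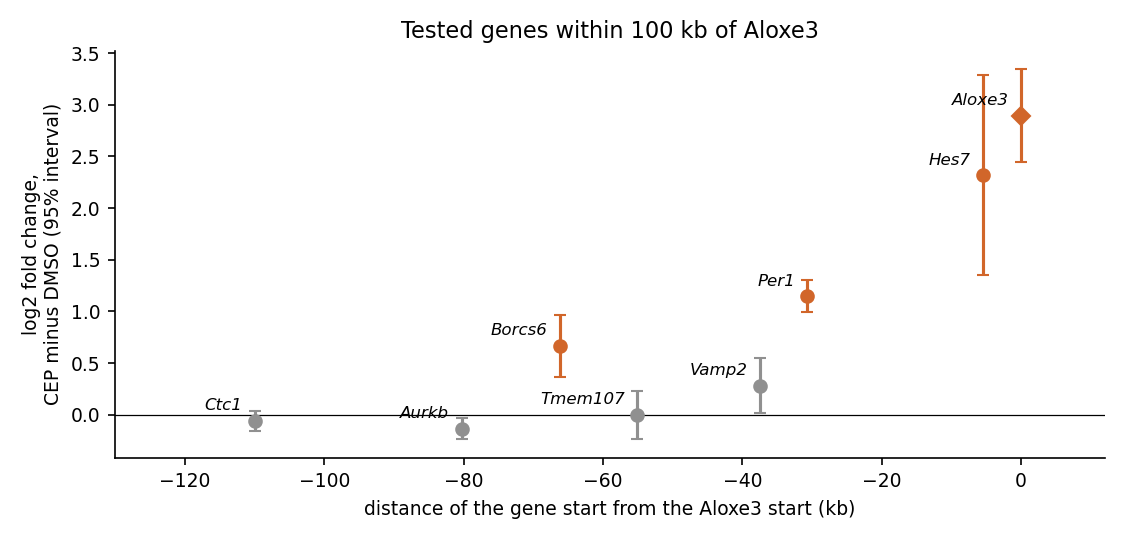
Log2 fold change, CEP minus DMSO, with 95% intervals, of the tested genes within 100 kb of Aloxe3, placed by the distance of their start from the Aloxe3 start. Orange marks genes that passed the test and, as a diamond, Aloxe3, which was not tested and whose interval is descriptive only. Hes7 at 2.32 and Per1 at 1.15 lie nearest to Aloxe3, and the intervals of Tmem107 and Ctc1 include 0. Hes7 was kept by the filter on low counts on its CEP libraries alone.

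Around Alox12 and Alox15, a second lipoxygenase cluster of the same chromosome, 5 other genes were tested: 2 rose, none fell, and 3 missed the threshold. The share that passed is near the 38.2% of all genes, but both calls were upward, where 20.1% of all genes rose. So few genes give no result about the cluster. The rises were small. Slc16a13, a monocarboxylate transporter gene, rose by 0.22 ± 0.0667 on the log2 scale (SE, edgeR adjusted p = 0.0157), a call that ended without CEP replicate 2 (adjusted p = 0.0544) and without DMSO replicate 1 (adjusted p = 0.0714, alternatives 0.00787 to 0.0714). Arrb2, which encodes beta-arrestin 2, rose by 0.24 ± 0.0788 (edgeR adjusted p = 0.0275), and did not pass without CEP replicate 2 or 3 (0.103 and 0.100), without DMSO replicate 1 or 3 (0.105 and 0.0997) or with DESeq2 (0.0552, alternatives 0.00180 to 0.105). The 3 others were Slc16a11, Pelp1 and Med11, with log2 fold changes of 0.38, -0.084 and -0.24. Pelp1 and Med11 passed without CEP replicate 1 (-0.14 and -0.31, edgeR adjusted p = 0.0197 and 0.0201, alternatives up to 0.548 and 0.308).

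Among the 12496 tested genes that averaged 1 CPM or more, the 5 whose pattern was most like that of Aloxe3 were Cxcl2, Gpnmb, Ifi207, Atp13a4 and Lilr4b. Likeness was the root mean square difference, over the 6 libraries, between the genes' log2 deviations from their own DMSO mean. It was 0.13 for Cxcl2, a neutrophil chemokine gene, 0.22 for Gpnmb, a lysosomal glycoprotein gene, 0.28 for Ifi207, 0.32 for Atp13a4 and 0.39 for Lilr4b. Deviations of Aloxe3 were 2.43, 2.94 and 3.19 in CEP replicates 1, 2 and 3, and those of Cxcl2 were 2.68, 3.01 and 3.10. Those of Gpnmb were 2.40, 2.83 and 2.81. CEP replicate 1 stood lowest of the CEP libraries in Aloxe3 and in all 5 genes. As the 5 were picked for likeness over these same libraries, that is no separate result.

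Compared per kilobase of exon (GENCODE M21 exons merged per gene), the members spanned a wide range of levels. In DMSO libraries Gpx4 had 167 ± 5.52 CPM per kb (SD, n = 3), Por 60.9 ± 1.34, Acsl4 51.0 ± 2.54, Lpcat3 20.7 ± 0.349, Aifm2 8.08 ± 0.514, Gch1 1.16 ± 0.144 and Aloxe3 0.205 ± 0.0231. In CEP libraries the order was the same, with Gch1 at 2.51 ± 0.517 and Aloxe3 at 1.54 ± 0.395 CPM per kb. Neighbours in this order did not overlap in either group. The lengths deposited with the counts gave the same order, but they are the lengths of single transcripts, 879 bases for Gpx4 and 918 for Por, which place Por at 267 ± 5.86 CPM per kb in DMSO. The per-length level of Gpx4 carries the doubt about its copy.

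The other pathway genes went both ways. Of 108 tested genes in 11 lists of the pathway (135 listed, chosen with earlier results of these data known), 26 rose, 24 fell and 58 did not pass, with a median log2 fold change of -0.037. That is 46.3% called, beside 38.2% of all genes, with 24.1% against 20.1% higher and 22.2% against 18.2% lower. Without CEP replicate 1, 30 of them rose and 37 fell.

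**Figure D5:**
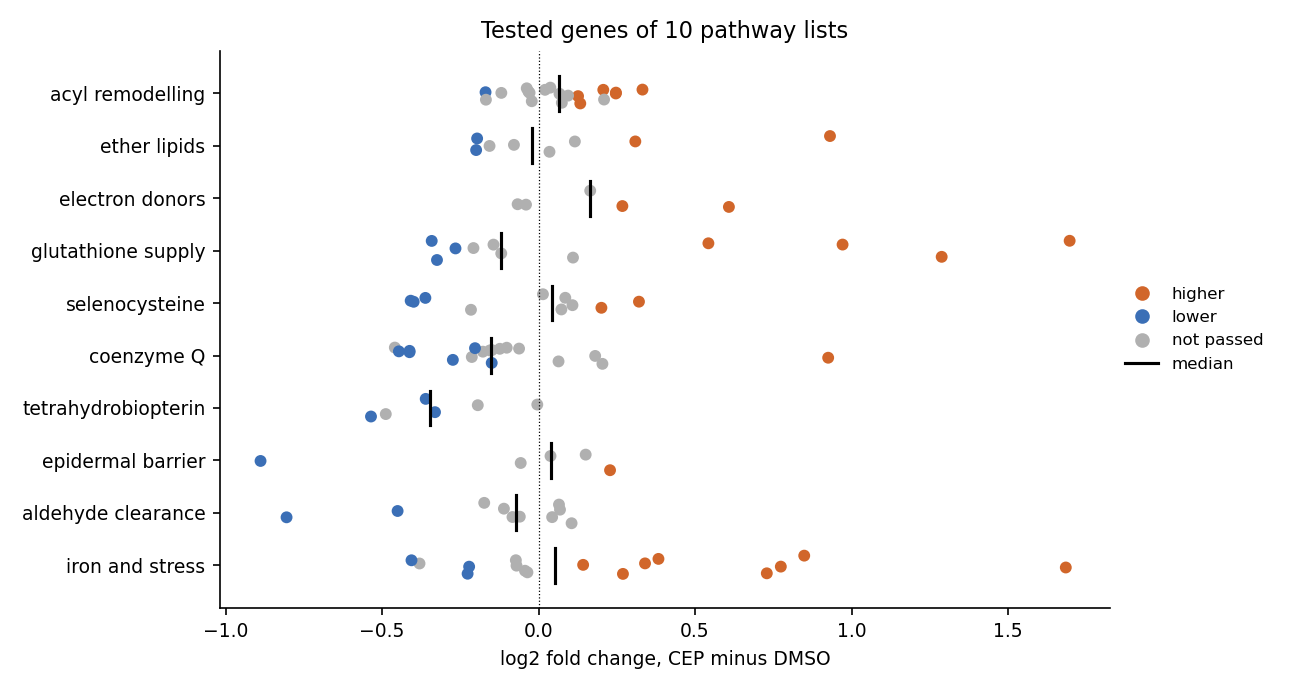
Log2 fold change, CEP minus DMSO, of each tested gene in 10 pathway lists (the lipoxygenase list had none), coloured orange where it rose, blue where it fell and grey where it did not pass, with the list's median as a black bar. The tetrahydrobiopterin and coenzyme Q medians lie below 0, at -0.35 and -0.15.

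Around Acsl4 and Lpcat3, 6 of 19 tested genes of fatty acid activation, desaturation and acyl remodelling rose, 1 fell and 12 did not pass (median 0.067). The 36.8% called is near the 38.2% of all genes, but with 31.6% against 20.1% higher and 5.26% against 18.2% lower. Acsl3, which favours the activation of monounsaturated fatty acids, rose by 0.33 ± 0.0548 on the log2 scale (SE, edgeR adjusted p = 3.22e-04). Fads1, the delta-5 desaturase gene of arachidonate synthesis, and Mboat7, which places arachidonate in phosphatidylinositol, each rose by 0.25 (SE 0.0471 and 0.0561, edgeR adjusted p = 9.45e-04 and 0.00315). Mboat1 was lower (-0.17 ± 0.0607, edgeR adjusted p = 0.0394), a call that ended under DESeq2 (0.0693), with no low-count filter (0.0510), without CEP replicate 3 (0.127) and without any single DMSO library (0.0649, 0.128 and 0.0979 for replicates 1, 2 and 3, alternatives 0.0168 to 0.128). Without CEP replicate 3 or DMSO replicate 3, 3 genes of this list rose.

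Of 8 ether lipid and plasmalogen genes, all tested, 2 rose, 2 fell and 4 did not pass (median -0.022). That is 50% called, beside 38.2% of all genes. Agps and Far1, of the peroxisomal steps, fell by 0.20 ± 0.0483 and 0.20 ± 0.0537 on the log2 scale (SE, edgeR adjusted p = 0.00486 and 0.0101). Tmem189, which encodes the desaturase that makes the plasmalogen vinyl ether bond, rose by 0.31 ± 0.0804 (edgeR adjusted p = 0.00751), and did not pass without DMSO replicate 3 (0.0540, alternatives 6.15e-04 to 0.0540). Far2, a paralog of Far1 from 1.34 ± 0.170 to 2.55 ± 0.449 CPM (SD, n = 3), rose by 0.93 ± 0.255 (edgeR adjusted p = 0.0102), a call that ended without CEP replicate 3 (0.0601) and without DMSO replicate 3 (0.0502, alternatives 0.00717 to 0.0601).

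The supply lines of GPX4 were mixed. Of 11 tested genes of cystine uptake and glutathione supply (14 listed), 4 rose, 3 fell and 4 did not pass (median -0.12). That is 63.6% called, beside 38.2% of all genes, with 36.4% against 20.1% higher and 27.3% against 18.2% lower. Chac1, which encodes a glutathione-degrading enzyme, and Mgst1, a microsomal glutathione transferase gene, rose by 1.70 ± 0.0614 and 0.97 ± 0.0907 on the log2 scale (SE, edgeR adjusted p = 4.66e-10 and 2.13e-06), and Slc3a2, of the cystine transporter, by 0.54 ± 0.0620 (edgeR adjusted p = 1.69e-05). Slc7a11, also of the cystine transporter and named after its value was seen, rose by 1.29 ± 0.204 (edgeR adjusted p = 0.00377). Gclm, of glutathione synthesis, Gsr, the glutathione reductase gene, and Gpx1, the cytosolic glutathione peroxidase gene, fell by 0.34 ± 0.0570, 0.27 ± 0.0584 and 0.32 ± 0.0723 (edgeR adjusted p = 3.49e-04, 0.00257 and 0.00378). Of 10 tested genes of selenium uptake and selenocysteine incorporation (12 listed), on which GPX4 synthesis depends, 2 rose, 3 fell and 5 did not pass (median 0.043). Here 50% were called, beside 38.2% of all genes. Scly, which frees selenium from selenocysteine, and Lrp8, a selenoprotein P receptor gene, rose by 0.32 ± 0.0719 and 0.20 ± 0.0524 (edgeR adjusted p = 0.00290 and 0.00760). Pstk, which prepares the selenocysteine tRNA, and Sephs1, a selenophosphate synthetase paralog, fell by 0.41 ± 0.111 and 0.40 ± 0.0654 (edgeR adjusted p = 0.00983 and 3.16e-04). Eefsec, the selenocysteine elongation factor gene, was lower (-0.36 ± 0.115, edgeR adjusted p = 0.0231), a call that ended without CEP replicate 2 or 3 (0.107 and 0.0676) or without DMSO replicate 2 or 3 (0.0846 and 0.107, alternatives 8.77e-05 to 0.107).

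Around Aifm2, 1 of 18 genes of coenzyme Q synthesis, transport and reduction rose, 6 fell and 11 did not pass (median -0.15). The 38.9% called is near that of all genes, but with 5.56% against 20.1% higher and 33.3% against 18.2% lower. Without CEP replicate 1, 10 fell, and without DMSO replicate 3, 3 fell. Dhodh, a mitochondrial coenzyme Q reductase gene, fell by 0.45 ± 0.0931 on the log2 scale (SE, edgeR adjusted p = 0.00179), and Coq3, a methyltransferase gene of coenzyme Q synthesis, by 0.41 ± 0.0984 (edgeR adjusted p = 0.00441). Vkorc1l1, which encodes a vitamin K reductase, fell by 0.27 ± 0.0590 (edgeR adjusted p = 0.00222). Coq10a, a coenzyme Q-binding protein gene, rose by 0.93 ± 0.146 (edgeR adjusted p = 2.24e-04), from 6.13 ± 0.379 to 11.6 ± 2.14 CPM.

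Most partners of Aloxe3 in the epidermal lipid barrier had too few counts to be tested. Of 14 listed 5 were tested, 1 rose, 1 fell and 3 did not pass (median 0.038). The 40% called is near the 38.2% of all genes. Nipal4, a gene of inherited ichthyosis as Aloxe3 is, fell by 0.89 ± 0.217 on the log2 scale (SE, edgeR adjusted p = 0.00609), from 8.10 ± 0.349 to 4.31 ± 1.68 CPM (SD, n = 3). Slc27a4, a fatty acid transport protein gene, rose by 0.23 ± 0.0733 (edgeR adjusted p = 0.0234), and did not pass without CEP replicate 2 (0.0830), without DMSO replicate 1, 2 or 3 (0.0542, 0.0705 and 0.0952) or with DESeq2 (0.0625, alternatives 0.0183 to 0.0952). Of 10 markers of differentiated keratinocytes 8 had no count in any library, among them Krt1, Ivl, Lor and Flg, and the summed level of the 10 ran from 7.35 to 8.19 CPM in CEP and from 5.25 to 7.77 CPM in DMSO. Of the 2 tested, Sbsn rose from 3.52 ± 0.557 to 5.88 ± 0.230 CPM (log2 fold change 0.73 ± 0.169, edgeR adjusted p = 0.00341), and Krt10 had a log2 fold change of -0.65 ± 0.253 (edgeR adjusted p = 0.0555).

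Downstream of peroxidation, 0 of 10 tested genes that clear lipid aldehydes and hydroperoxides (12 listed) rose, 2 fell and 8 did not pass (median -0.072). That is 20% called, all lower, beside 38.2% of all genes, of which 18.2% fell. Aldh3a1, an aldehyde dehydrogenase gene, went from 137 ± 2.61 to 78.3 ± 3.08 CPM (SD, n = 3), a log2 fold change of -0.81 ± 0.0495 (SE, edgeR adjusted p = 4.19e-08). Prdx6, which encodes a peroxiredoxin that reduces phospholipid hydroperoxides, went from 319 ± 2.62 to 233 ± 12.1 CPM (-0.45 ± 0.0486, edgeR adjusted p = 7.84e-06). Without CEP replicate 1, 2 genes of this list rose and 5 fell, and with upper quartile scaling 4 fell. Of 16 genes of iron handling and ferroptosis-associated genes 8 rose, 3 fell and 5 did not pass (median 0.053). That is 68.8% called, beside 38.2% of all genes, with 50% against 20.1% higher and 18.8% against 18.2% lower. Slc11a2 (DMT1), an iron importer gene, rose by 0.85 ± 0.0568 (edgeR adjusted p = 8.64e-08), Hmox1 by 0.77 ± 0.0665 (edgeR adjusted p = 9.52e-07) and Ptgs2, often read as a marker of ferroptosis, by 0.73 ± 0.0747 (edgeR adjusted p = 1.50e-05). Sat1, named after its value was seen, rose by 1.68 ± 0.170 (edgeR adjusted p = 6.37e-04). Nfs1, the iron-sulfur cluster gene, fell by 0.41 ± 0.0811 (edgeR adjusted p = 0.00132). Ncoa4, the ferritinophagy receptor gene, and Keap1, the inhibitor gene of NRF2, fell by 0.23 ± 0.0629 and 0.22 ± 0.0621 (edgeR adjusted p = 0.0109 and 0.0114). Ncoa4 did not pass without CEP replicate 3 (edgeR adjusted p = 0.0609, alternatives up to that value), nor Keap1 without DMSO replicate 3 (0.0899, likewise the highest).

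Markers of the labelled cell type and of other cell types were counted as well. The 8 epithelial markers summed to 2809 to 2899 CPM in CEP and 3198 to 3287 CPM in DMSO, with Krt18 the most abundant and Krt5 at 0 in all libraries. Of 7 tested, Krt8 and Krt18 fell, by 0.60 and 0.26 on the log2 scale, while Krt19, Cldn7, Epcam and Cdh1 rose, by 0.72, 0.70, 0.42 and 0.39, and Krt14 did not pass. Of 10 leukocyte markers 4 were at 0 in all libraries (Adgre1, Siglecf, Ms4a7 and Tyrobp). The sum of the 10 was 72.5 to 94.3 CPM in CEP and 43.1 to 48.0 CPM in DMSO, with Cd68 the most abundant (48.1 and 17.3 CPM). Of 3 tested, Cd68 and Cd14 rose, by 1.47 and 0.45 on the log2 scale, and Mrc1 did not pass. Ptprc had 2, 0 and 1 counts in CEP and 3, 1 and 2 in DMSO. Csf1r had 4, 5 and 3 against 2, 2 and 3, and Itgam had 1 count, in CEP replicate 1. The 6 platelet markers summed to 29.7 to 31.7 and 27.2 to 31.6 CPM, mostly Itgb3, and the 6 fibroblast markers to 85.7 to 101 and 62.8 to 69.5 CPM, mostly Pdgfra, with Col3a1 and Lum at 0. The part of these in the rises of Aloxe3 and Gch1 was not tested.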

How the data were processed

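Bulk poly(A) RNA-seq of 6 libraries was used. Per the file headers, the authors deposited raw read counts for each Ensembl gene, whole and not normalised, with coordinates on GRCm38.p6. The submitters' processing notes name GRCm38, HTSeq, HISAT, HISAT2 and DESeq2, without their roles. Strand setting, annotation release and read filters: not given in the sources used here. Groups and replicate numbers came from the sample titles.

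Low genes were removed by filterByExpr of edgeR 4.0.16 in R 4.3.3, with a count minimum of 10 and a total minimum of 15. Libraries were scaled by TMM, and the quasi-likelihood test of edgeR compared CEP minus DMSO, with the group as the only term. Benjamini-Hochberg adjustment covered all 13405 tested genes. The SE was obtained by dividing the size of the log2 fold change by the root of F, and 95% intervals are normal ones from it. The test was tested on simulated counts with a common dispersion for all genes, which does not give its error rate in these data. Chi-square per degree of freedom between replicates was at least 1.81, so no pair agreed within sampling noise. Depth limits are 3 counts of a group's summed total. The log2 CPM used for likeness had a prior count of 0.5.

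The members and lists were chosen with earlier results of these data known, and 183 symbols of the lists and members matched directly and 1 through an older symbol. The text names all members, up to 3 genes per list and direction by adjusted p, the lipoxygenase and tetrahydrobiopterin lists, up to 4 tested neighbours per side, and 5 genes most like Aloxe3, apart from an item that is not reported here. Gpx4-ps2, Emg1, Borcs6, Aurkb, Ctc1, Slc7a11, Sat1 and the marker genes given with a fold change or counts were named after their values were seen. Alternatives were RLE, upper quartile and total-count scaling, DESeq2 1.42.0, limma-voom 3.58.1, other low-count filters, a replicate block, each library left out and a threshold of 0.01. Shared words, lengths and overlaps were taken from GENCODE M21 (GRCm38), and promoters from RefSeq.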

Additional observations from a re-analysis of the deposited data

How the results depend on the processing

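The 6 tested members apart from Aloxe3 kept their call under each of 15 alternatives, with 3 higher and 0 lower in each, also at a threshold of 0.01. The log2 fold change of Gch1 ran from 0.93 to 1.21, of Gpx4 from 0.15 to 0.23 and of Por from 0.17 to 0.25, and that of Aloxe3 from 2.71 to 3.07. Of 64 tested genes followed one by one, 50 kept their call under each alternative run at the threshold of 0.05 and 14 changed it under at least 1, and none that passed reversed. At a threshold of 0.01, 9 of the 64 lost their call, Far1 among them, and over all genes 3307 passed, 1783 higher and 1524 lower. With 1 library left out, 3735 to 6905 genes passed, with 6905 without CEP replicate 1, and 18 to 37 other pathway genes fell, with 37 without CEP replicate 1. Hes7 was not among the genes kept with at least 1 CPM in 3 libraries. The 5 genes most like Aloxe3 were the same with a prior count of 2. Same-numbered libraries did not deviate together (correlations -0.0494, 0.0212 and -0.0258 for numbers 1, 2 and 3, and not every library correlated best with its own number). With so few libraries per group, this does not exclude that same-numbered samples were handled together. With the replicate block 4896 genes passed, 2595 higher and 2301 lower, 47 other pathway genes passed, 24 higher and 23 lower, and 3 members did, 3 higher and 0 lower. Depth limits Alox12, Alox15 and the other lipoxygenase genes, which had too few counts for a test, and counting errors exclude variation between cultures.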
